A study of Mus musculus with 13 samples.

Results

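The Ms4a genes encode small proteins that span the cell membrane and sit mostly in blood and immune cells. The 7 studied here, Ms4a4a, Ms4a4b, Ms4a4c, Ms4a6b, Ms4a6c, Ms4a6d and Ms4a7, were selected from the mouse gene cluster that corresponds to the human MS4A locus associated with Alzheimer disease risk, by name and not by a measured value. They are 7 of the 55536 gene identifiers in each library's file. Of the 7, only Ms4a6b, Ms4a6c and Ms4a6d passed a filter on low counts and were tested among 17483 genes, and the other 4 are described by their counts.

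MS4A proteins associate with receptors and other proteins at the surface and change how these signal. The family's best known members are Ms4a1, which encodes the B-cell antigen CD20, and Ms4a2, the beta chain of the high-affinity IgE receptor of mast cells. In the brain the Ms4a4, Ms4a6 and Ms4a7 genes are known from microglia and from the macrophages of the brain's borders, and in people MS4A variants are associated with the level of soluble TREM2, the shed form of a microglial receptor.

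RNA from frontal cortex was sequenced in 13 libraries. Wild-type mice were of the strain B6SJLF1/J. 5XFAD mice carry human transgenes with familial Alzheimer disease mutations under the neuronal Thy1 promoter, so that amyloid from the transgenes is made by neurons. At 6 months the wild type had 4 libraries and 5XFAD had 3. At 11 months each genotype had 3, and no treatment is named. Libraries are numbered within a group in accession order, and the labels do not say that they came from separate animals, so each p-value rests on library-to-library spread.

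Totals lay between 23618289 and 26615772 counts per library. By Xist and Y-linked counts 5 libraries were female and 8 male: libraries 1 and 2 of the wild type and none of the 5XFAD libraries at 6 months, and library 1 of the wild type and libraries 1 and 3 of 5XFAD at 11 months. Wild-type library 1 at 6 months stood apart in choroid plexus markers, with 2943 CPM (counts scaled to library size) summed over 4 genes against 4.13 to 30.7 CPM in the 5XFAD and older libraries. Cortical tissue was checked by 4 neuronal markers, which summed to between 3347 and 5488 CPM. The relation of counts to transcript length differed between libraries: the log2 level per doubling of length lay between -0.09 and -0.05 in 5XFAD and between -0.05 and 0.02 in wild type at 6 months, and between 0.00 and 0.05 in 5XFAD and between 0.02 and 0.14 in wild type at 11 months. The mitochondrial share of counts was 8.38 to 8.88% in wild type against 9.94 to 9.99% in 5XFAD at 6 months, without overlap, and 7.89 to 11.43% and 10.1 to 11.3% at 11 months. The Ms4a6 transcripts, at 1240 to 1912 bases, are shorter than the median tested transcript of 2439 bases, and the part of length or of the mitochondrial share in the differences below was not tested.

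The 7 genes lie in 283.8 kb of chromosome 19 (GRCm38, GENCODE M21), where 19 Ms4a genes were matched. In order along the chromosome they are Ms4a7 (chr19:11321039-11336146, minus strand), Ms4a4a (chr19:11375523-11392790, plus), Ms4a4c (chr19:11404770-11427246, plus), Ms4a4b (chr19:11443553-11467055, plus), Ms4a6c (chr19:11469366-11482192, plus), Ms4a6b (chr19:11516512-11531256, plus) and Ms4a6d (chr19:11586604-11604849, minus). All are protein-coding. RefSeq promoter windows of GRCm38.p6, each from 250 bases before to 50 bases after a start site, were matched for 6 of the 7. Ms4a7 had a pair of windows and Ms4a6d had none.

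The windows of the 2 pairs of close paralogs are shown because they are the most alike among the matched windows, which do not include Ms4a6d. Both Ms4a4b and Ms4a4c went from near 0 counts in wild type to low counts in 5XFAD. Their windows were 81.9% identical over 281 aligned bases, with 38 gap bases. Capitals mark the letters GAGGAA, the core bound by PU.1, a transcription factor of macrophages and microglia, which lies 64 bases before the Ms4a4b start and 61 bases before the Ms4a4c start. The 250 bases before each start site on the plus strand, at chr19:11443308-11443557 and chr19:11407411-11407660, read 5′ to 3′:
Ms4a4b: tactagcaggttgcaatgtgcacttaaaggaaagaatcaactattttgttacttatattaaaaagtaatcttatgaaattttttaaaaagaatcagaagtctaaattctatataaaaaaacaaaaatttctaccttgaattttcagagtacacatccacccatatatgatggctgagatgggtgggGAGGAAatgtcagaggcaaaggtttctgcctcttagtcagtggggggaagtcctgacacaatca
Ms4a4c: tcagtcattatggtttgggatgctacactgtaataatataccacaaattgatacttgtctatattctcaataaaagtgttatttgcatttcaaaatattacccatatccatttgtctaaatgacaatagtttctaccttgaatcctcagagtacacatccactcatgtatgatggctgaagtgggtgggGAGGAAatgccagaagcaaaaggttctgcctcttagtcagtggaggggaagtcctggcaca

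Ms4a6c and Ms4a6b had windows that were 85.3% identical over 225 aligned bases, with 150 gap bases. They shared an unbroken run of 48 bases that starts 49 bases before the Ms4a6c start and 118 bases before the Ms4a6b start. Capitals mark the letters AGGAAGT or its reverse complement ACTTCCT, an ETS-type site chosen after the windows were seen. One match lies in the shared run, 17 bases before the Ms4a6c start and 86 before the Ms4a6b start, and Ms4a6b has another on the minus strand 43 bases before its start. The stretches at chr19:11469118-11469367 and chr19:11518309-11518558, plus strand, read:
Ms4a6c: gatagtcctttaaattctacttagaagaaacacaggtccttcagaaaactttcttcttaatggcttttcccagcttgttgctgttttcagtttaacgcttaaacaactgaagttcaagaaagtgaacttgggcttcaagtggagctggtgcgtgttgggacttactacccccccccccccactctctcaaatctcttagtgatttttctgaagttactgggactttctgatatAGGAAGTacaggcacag
Ms4a6b: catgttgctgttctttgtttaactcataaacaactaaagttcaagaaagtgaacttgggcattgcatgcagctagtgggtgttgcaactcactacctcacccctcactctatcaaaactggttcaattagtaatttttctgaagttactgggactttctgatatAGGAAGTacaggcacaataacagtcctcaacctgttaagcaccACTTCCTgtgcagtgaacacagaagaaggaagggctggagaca

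In all, 5 motifs were searched on both strands of the 300-base windows. GAGGAA stood in 28.3% of 32851 RefSeq windows, AGGAAGT in 9.35% and CACGTG, an E-box, in 7.15%. TGANTCA, an AP-1-like pattern that allows any base at its centre and so is looser than the AP-1 site, stood in 7.81%. An ISRE-like element, of the kind bound by interferon-response factors, stood in 3.44%. GGAA, the core inside GAGGAA and AGGAAGT, stood in 96.0%. In the first Ms4a7 window GAGGAA lay 44 bases after the start. TGANTCA lay 23 bases after the Ms4a4b start, as TGAATCA, and 81 bases before the second Ms4a7 start, as TGATTCA. The Ms4a4a window held none of the 5. Other pairs of windows were 57.0 to 66.8% identical in the same global alignment, with no shared run above 9 bases. These matches describe letters, and no binding was measured here.

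The family was higher in 5XFAD cortex at both ages, and most of its RNA was Ms4a6. Over the 13 libraries the 7 genes summed to 1060 counts, of which 926 came from Ms4a6b, Ms4a6c and Ms4a6d and 78 from the Ms4a4 genes. At 6 months the summed level was 1.73 ± 0.30 CPM (SD, n = 4) in wild type, against 3.79 ± 0.55 CPM (n = 3) in 5XFAD, a ratio of 2.19. At 11 months it was 2.74 ± 0.35 CPM (n = 3) in wild type, against 5.36 ± 0.40 CPM (n = 3) in 5XFAD, a ratio of 1.956. The lowest 5XFAD library lay above the highest wild-type library at each age, as it did for 6.97% and 10.4% of single tested genes. The sum was also higher at 11 than at 6 months, by a ratio of 1.58 in wild type against 1.41 in 5XFAD. Libraries of the 2 ages did not overlap, as was so for 9.11% of single tested genes in wild type and 18.4% in 5XFAD. No test was run on the sum.

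**Figure D1:**
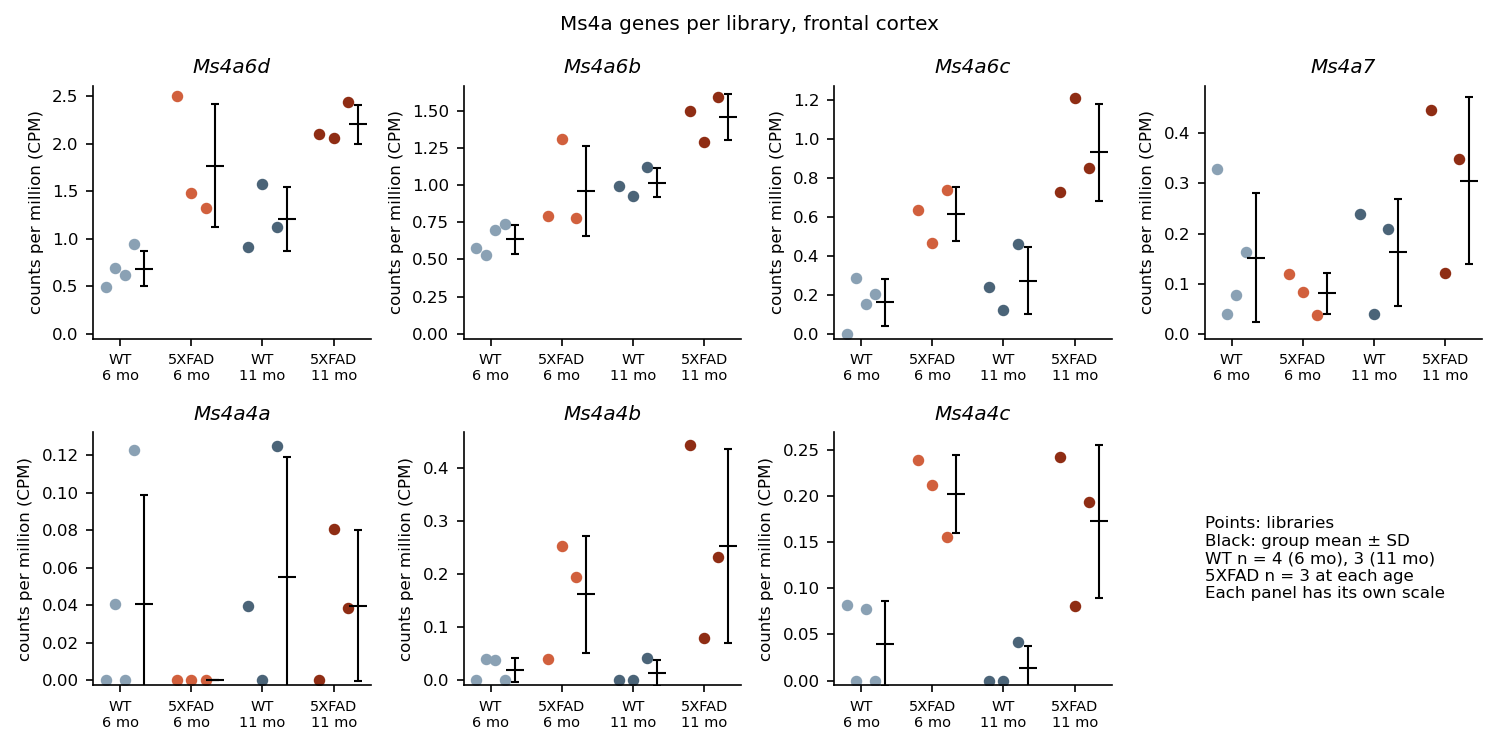
CPM of each of the 7 Ms4a genes (vertical axis, own scale per gene) in the 13 frontal cortex libraries by group (horizontal axis), with points for libraries and black marks for the group mean ± SD. Ms4a6d, Ms4a6b and Ms4a6c lie higher in every 5XFAD library than in every wild-type library of the same age, while Ms4a7 and Ms4a4a overlap.

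Ms4a6d, a macrophage and microglia gene, was the most abundant member. Its levels in wild type at 6 months were 0.491, 0.691, 0.621 and 0.939 CPM in libraries 1 to 4, and in 5XFAD 2.50, 1.48 and 1.32 CPM in libraries 1 to 3. All 3 5XFAD libraries were above all 4 wild-type libraries, library 1 most so. Of the 3 tested members, Ms4a6d was the 1 that rose by the edgeR quasi-likelihood test at 6 months, where 1.30% of tested genes were called higher. Its log2 fold change was 1.36 ± 0.30 (SE; 2.57-fold; adjusted p = 0.0432), higher in 3 of 3 5XFAD libraries.
That call was near the threshold. It was lost without any one of the 3 5XFAD libraries at 6 months (adjusted p = 0.288, 0.0790 and 0.0545 without libraries 1, 2 and 3), the first 3 wild-type libraries at 6 months (0.121, 0.120 and 0.105) or the 3 5XFAD libraries at 11 months (0.0723, 0.0608 and 0.0617), with sex as a term (0.136) and in a fit of that age alone (0.0915). The log2 fold change then lay between 1.03 and 1.55 over the libraries left out.

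At 11 months Ms4a6d stood at 0.916, 1.57 and 1.12 CPM in wild-type libraries 1 to 3 and at 2.10, 2.06 and 2.44 CPM in 5XFAD libraries 1 to 3. The groups did not overlap. The log2 fold change of 0.87 ± 0.31 (1.82-fold) did not pass the test (adjusted p = 0.167, unadjusted p = 0.0150). None of the 3 tested members was called at this age by edgeR or DESeq2, against 3.80% of tested genes called higher by edgeR and 5.19% by DESeq2. The other 4 members were not in these fits. With 3 genes, a lack of calls cannot be set apart from those shares.

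Ms4a6b, known from T cells and myeloid cells, was next in abundance. Its levels at 6 months were 0.573, 0.528, 0.698 and 0.735 CPM in wild type against 0.795, 1.31 and 0.777 CPM in 5XFAD. At 11 months they were 0.996, 0.929 and 1.12 CPM in wild type against 1.497, 1.29 and 1.59 CPM in 5XFAD. The 5XFAD libraries were above the wild-type libraries at each age, at 6 months by a narrow margin for libraries 1 and 3. The log2 fold changes of 0.59 ± 0.27 at 6 months (adjusted p = 0.541) and 0.52 ± 0.28 at 11 months (adjusted p = 0.397) did not pass the test.

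Ms4a6c, a gene of monocytes and macrophages, had the largest fold of the 3 tested members and the fewest counts. Its levels at 6 months were 0, 0.284, 0.155 and 0.204 CPM in wild type against 0.636, 0.465 and 0.738 CPM in 5XFAD. At 11 months they were 0.239, 0.121 and 0.458 CPM in wild type against 0.728, 1.21 and 0.852 CPM in 5XFAD. Library 1 of the wild type at 6 months, the one rich in choroid plexus markers, had no Ms4a6c count, where 3 counts would be 0.123 CPM, and no groups of one age overlapped. The log2 fold changes of 1.90 ± 0.61 (3.73-fold) at 6 months and 1.76 ± 0.60 (3.38-fold) at 11 months did not pass the test (adjusted p = 0.235 and 0.136). Without wild-type library 1 at 6 months, the fold change at 11 months was called (adjusted p = 0.0472).

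**Figure D2:**
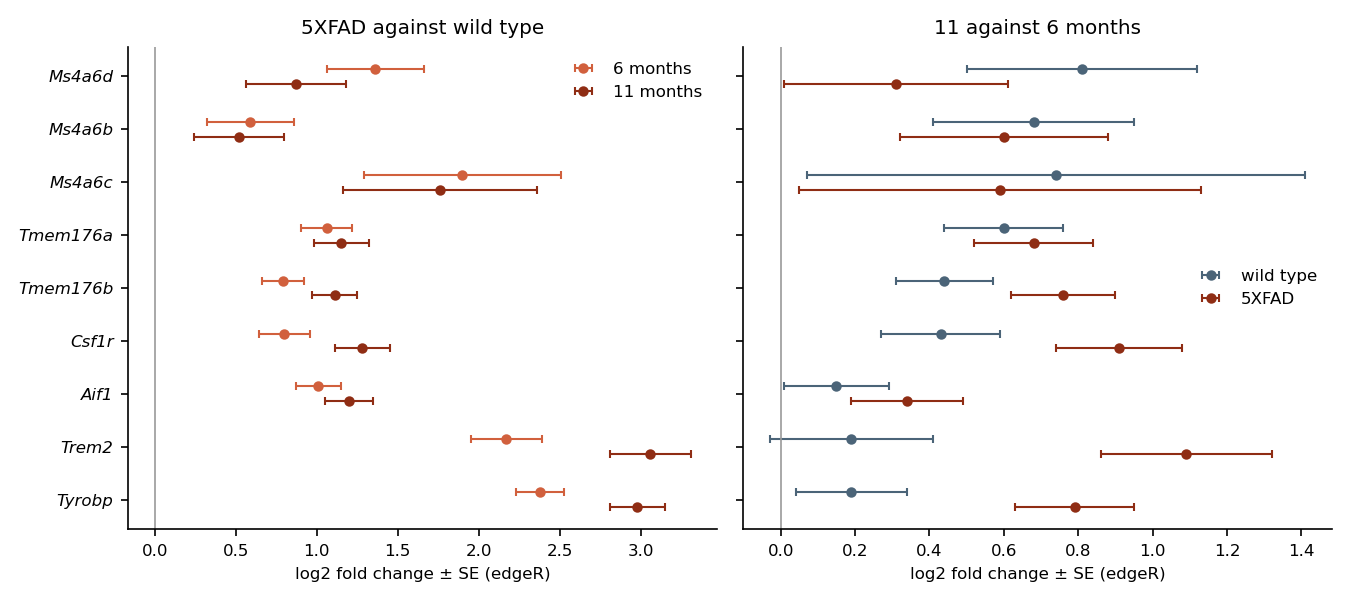
Log2 fold change from the edgeR fit (horizontal axis; bars are 1 SE) for the 3 tested Ms4a genes, the related Tmem176a and Tmem176b, and 4 microglial genes, for 5XFAD against wild type at each age (left) and for 11 against 6 months in each genotype (right). The Ms4a6 genes have wider bars than the others, and Ms4a6d has a genotype difference of 1.36 at 6 and 0.87 at 11 months where Csf1r has 0.80 and 1.28.

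Because each single-age comparison rested on few counts, the genotype difference was also averaged over both ages in the same fit, a contrast added after the values were seen. Ms4a6d then rose by 1.11 ± 0.22 on the log2 scale (2.16-fold; adjusted p = 0.00568) and Ms4a6c by 1.83 ± 0.43 (3.55-fold; adjusted p = 0.0170), where 4.88% of tested genes were called higher. Ms4a6c reached the filter's minimum count of 10 in 1 of 7 wild-type libraries and in all 6 5XFAD libraries, so it entered the test through the group in which it was higher. In a fit without the filter its difference was 1.85 ± 0.42 (edgeR, adjusted p = 0.00720). Ms4a6b had a difference of 0.56 ± 0.19 (adjusted p = 0.121). Ms4a6d was called in each of the 13 fits that left out a library (adjusted p between 0.00487 and 0.0210). Ms4a6c was called in 12 of them and missed the threshold without 5XFAD library 3 at 6 months (adjusted p = 0.0518).

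The genotype difference was not shown to change with age. The interaction was -0.50 ± 0.44 for Ms4a6d, -0.07 ± 0.39 for Ms4a6b and -0.14 ± 0.87 for Ms4a6c on the log2 scale (adjusted p = 0.9995 for each). An approximate 95% interval for Ms4a6d, from the normal distribution, ran from -1.35 to 0.36. It is narrower than the test itself would give with so few libraries. One gene in the whole table, 0.00572%, was called in that comparison by edgeR. No tested member was called by edgeR or by DESeq2, which called 0.160% higher, and none had an unadjusted edgeR p under 0.05.

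With age, no tested member was called within either genotype, where 2.42% of tested genes were called higher in wild type and 4.84% in 5XFAD. In wild type the log2 changes from 6 to 11 months were 0.81 ± 0.31 for Ms4a6d (adjusted p = 0.137), 0.68 ± 0.27 for Ms4a6b (0.153) and 0.74 ± 0.67 for Ms4a6c (0.533). Ms4a6d and Ms4a6b had unadjusted p = 0.0207 and 0.0259, and for the 3 genes DESeq2 gave no adjusted p in this comparison. In 5XFAD the changes were 0.31 ± 0.30 for Ms4a6d (adjusted p = 0.564), 0.60 ± 0.28 for Ms4a6b (0.199) and 0.59 ± 0.54 for Ms4a6c (0.536). DESeq2 called none of these 3 genes and called 7.77% of all tested genes higher. Ms4a6b was the one tested member with an unadjusted edgeR p under 0.05 (0.0476). Averaged over genotypes, a contrast also added after the values were seen, Ms4a6b rose by 0.64 ± 0.19 (1.56-fold; adjusted p = 0.0312), where 12.6% of tested genes were called higher. That call was lost in 6 of the 13 fits that left out a library: 5XFAD libraries 1 and 3 at either age (adjusted p = 0.0786 and 0.0701 at 6 months, 0.0591 and 0.0766 at 11 months), wild-type library 2 at 6 months (0.0565) and wild-type library 3 at 11 months (0.0527). Ms4a6d had a mean change of 0.56 ± 0.22 (adjusted p = 0.0770), which passed without 5XFAD library 1 at 6 months (adjusted p = 0.0374).

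Ms4a4b and Ms4a4c were close to absent in wild type and present at low counts in all 6 5XFAD libraries. Ms4a4b, best known from T cells, had 0, 1, 1 and 0 counts in wild type against 1, 6 and 5 in 5XFAD at 6 months, and 0, 0 and 1 in wild type against 11, 2 and 6 in 5XFAD at 11 months. Ms4a4c, a gene of myeloid cells, had 2, 0, 2 and 0 counts in wild type against 6, 5 and 4 in 5XFAD at 6 months, and 0, 0 and 1 in wild type against 6, 2 and 5 in 5XFAD at 11 months. For Ms4a4c the genotypes did not overlap at either age, and for Ms4a4b they overlapped at 6 months through 5XFAD library 1. Every 5XFAD library lay above every wild-type library in CPM for 4 of the 7 members at 6 months and 5 at 11 months. Of the tested genes 6.97% and 10.4% did so. Those shares cover only genes that passed the low-count filter, which Ms4a4b and Ms4a4c did not, so the sets compared are unlike. The tested Ms4a6b, Ms4a6c and Ms4a6d were separate in this way at both ages.

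Summed over both ages, Ms4a4b had 3 counts in 7 wild-type libraries and 31 in 6 5XFAD libraries, a depth-scaled ratio of 11.9 with a 95% exact counting interval from 3.73 to 61.0. Ms4a4c had 5 and 28 counts, a ratio of 6.47 (2.47 to 21.5). Both ratios were computed after the low counts were seen, and the intervals and floors cover counting error only. Over the 13 ways to leave out a library, the ratio lay between 9.22 and 15.4 for Ms4a4b and between 5.53 and 9.26 for Ms4a4c.

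In an edgeR fit without the low-count filter, the mean genotype difference over both ages was 3.28 ± 0.90 on the log2 scale for Ms4a4b (adjusted p = 0.0182) and 2.74 ± 0.84 for Ms4a4c (adjusted p = 0.0461), where 2.88% of 30730 genes were called higher. The same fit did not call either gene at one age alone, where it called 0.771% of genes higher at 6 and 2.32% at 11 months. Its adjusted p was 0.596 at 6 and 0.120 at 11 months for Ms4a4b, and 0.71 and 0.245 for Ms4a4c. It was not repeated with libraries left out.

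Ms4a4a and Ms4a7 did not show the pattern of the other 5 members. Ms4a4a, a macrophage gene whose human counterpart is the one most tied to soluble TREM2, had 0, 1, 0 and 3 counts in wild type and 0 in each 5XFAD library at 6 months, and 1, 0 and 3 in wild type against 0, 2 and 1 in 5XFAD at 11 months. The 3 5XFAD libraries at 6 months allow up to 0.0403 CPM at 3 counts over the group. Its ratio of 5XFAD to wild type over both ages, from 3 and 8 counts, was 0.433 with a counting interval from 0.0740 to 1.81. Ms4a7, a marker of border macrophages, had 8, 1, 2 and 4 counts in wild type against 3, 2 and 1 in 5XFAD at 6 months, and 6, 1 and 5 in wild type against 11, 3 and 9 in 5XFAD at 11 months. The genotypes overlapped at both ages, and the ratio over both ages, from 27 and 29 counts, was 1.24 (0.709 to 2.18). Within 5XFAD each of the 3 libraries at 11 months was above each at 6 months in Ms4a7 CPM, as were 18.4% of genes that passed the filter. Library 2 at 11 months and library 1 at 6 months both had 3 counts (0.121 and 0.119 CPM), so only the scaling set them apart. The edgeR fit without the filter did not call that age change (1.86 ± 0.87 on the log2 scale, adjusted p = 0.296). In the fit without the filter, neither gene was called in the mean genotype contrast (unadjusted p = 0.125 for Ms4a4a and 0.982 for Ms4a7).

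**Figure D3:**
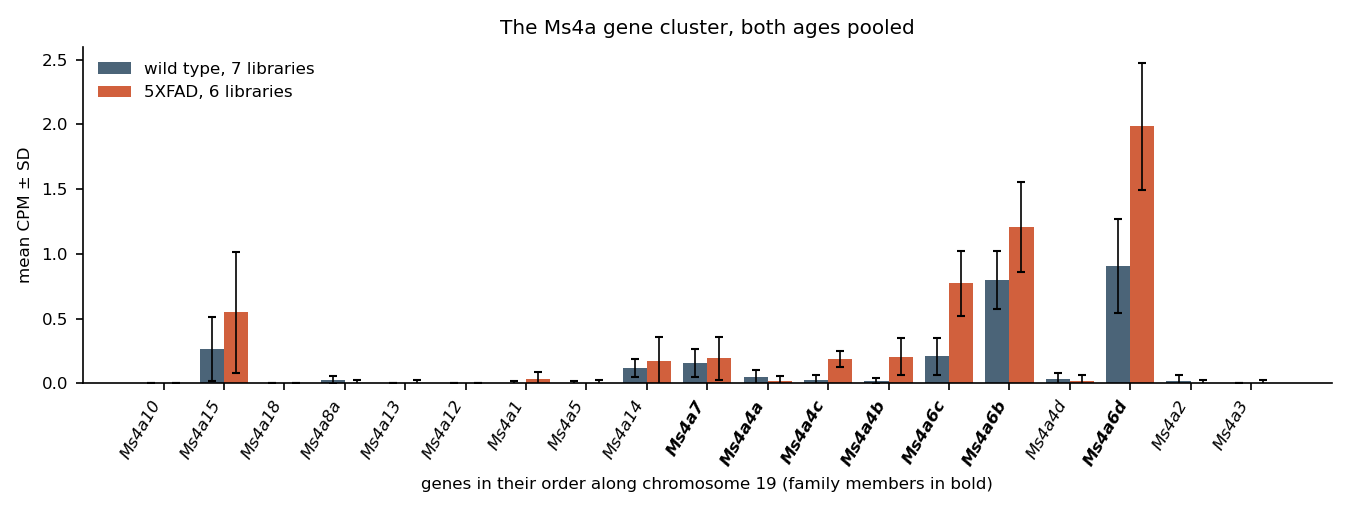
Mean CPM (vertical axis; bars are SD over libraries) of the 19 Ms4a genes in their order along chromosome 19, with both ages pooled, in 7 wild-type and 6 5XFAD libraries. Ms4a6d and Ms4a6b are the tallest pairs of bars, followed by Ms4a6c and Ms4a15, and most other genes of the cluster are at or near 0.

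Per length, in the length-scaled unit TPM, the order of the members was led in each of the 4 groups by Ms4a6d and then Ms4a6b. Ms4a6d had 0.800 ± 0.223 TPM (SD, n = 4) in wild type and 2.09 ± 0.537 TPM (n = 3) in 5XFAD at 6 months, and 1.73 ± 0.381 and 2.47 ± 0.247 TPM (n = 3 each) at 11 months. Ms4a6b followed with 0.508 ± 0.0974 and 1.0 ± 0.745 TPM at 6 months and 0.813 ± 0.107 and 1.03 ± 0.245 TPM at 11 months. The library ranges of these neighbours were separate in both genotypes at 11 months and overlapped in both at 6 months. Ms4a6c came next in 3 groups, and in wild type at 6 months Ms4a7 came next, with a range that overlapped that of Ms4a6c. Below the first pair neighbours overlapped, except Ms4a6b and Ms4a6c in wild type at 11 months and Ms4a7 and Ms4a4a in 5XFAD at 6 months.

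As a share of the 7 genes' summed CPM, Ms4a6b made up 36.8% ± 4.34 in wild type and 25.6% ± 8.16 in 5XFAD at 6 months, and 37.3% ± 3.26 and 27.2% ± 0.855 at 11 months. Ms4a6c made up 9.06% ± 7.15 and 16.6% ± 5.59 at 6 months, and 9.68% ± 5.06 and 17.6% ± 6.08 at 11 months. Ms4a6d kept the largest mean share, with 39.1% ± 4.72 and 45.9% ± 10.4 at 6 months and 44.3% ± 12.9 and 41.1% ± 2.26 at 11 months. By share of CPM the 5XFAD family thus held less Ms4a6b and more Ms4a6c than the wild-type family on average. Ranges overlapped at each age for Ms4a6c and at 6 months for Ms4a6b. By share of TPM, Ms4a6c made up 11.0% ± 7.88 in wild type and 12.4% ± 5.54 in 5XFAD at 6 months. At 11 months it made up 9.03% ± 7.11 and 16.5% ± 7.68. Ms4a6b held 26.2% and 21.3% of TPM at 6 months, and 25.1% and 18.9% at 11 months. Ms4a4b, on few counts, held 0.293% and 11.0% at 6 months, and 0.0936% and 7.46% at 11 months. TPM shares depend also on the isoform lengths that were estimated in each library: Ms4a6d in wild-type library 1 at 11 months had 23 counts and 2.10 TPM, while library 2 had 39 counts and 1.76 TPM.

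Reads split between genes showed as fractions of a count in Ms4a6c alone. Its expected count was not a whole number in 7 libraries, by at most 0.4 counts, and those of the other 6 members were whole in all 13, which does not show that none of their reads fit another gene. Of the distinct 50-base stretches in its annotated transcripts, 5.85% also occurred in Ms4a6b, 117 in number, and 4.70% in 10 genes outside the family. For Ms4a4c 7.73% and for Ms4a4b 1.53% occurred in another member, for Ms4a6b 3.44%, for Ms4a6d 2.31%, and for Ms4a4a and Ms4a7 none. Summed over the 3 Ms4a6 genes the level was 1.48 ± 0.33 CPM in wild type against 3.34 ± 0.55 CPM in 5XFAD at 6 months. At 11 months it was 2.49 ± 0.30 and 4.59 ± 0.28 CPM. The genotypes did not overlap at either age, with 5XFAD above, as was so for 6.97% and 10.4% of single tested genes.

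Microglial genes were higher in the same libraries. Of 13 core microglia genes, 8 rose at 6 months and 12 at 11 months in 5XFAD (1.30% and 3.80% of all tested genes), with a median log2 change of 0.93 and 1.20 against -0.01 and -0.03 over all tested genes. The 3 tested Ms4a6 genes had a median of 1.36 and 0.87. The core genes summed to between 370.4 and 375.5 CPM in wild type and between 706.7 and 757.6 CPM in 5XFAD at 6 months, and to between 380.0 and 667.8 CPM and between 1224 and 1708 CPM at 11 months. In bulk tissue fewer cells of a type and less RNA per cell cannot be told apart, and the same holds for more of either.

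Relative to the summed core genes, the 3 Ms4a6 genes had different offsets. Ms4a6d was on average 0.35 higher on the log2 scale in 5XFAD than in wild type at 6 months, with overlap, and 0.55 lower at 11 months (mean -9.28 against -8.74), where all 5XFAD libraries lay below all wild-type libraries. Ms4a6b was 0.41 lower at 6 months, with overlap, and 0.93 lower at 11 months without overlap. Ms4a6c was 1.35 and 0.40 higher with overlap. Its wild-type mean at 6 months, -11.54 (SD 1.77), was lowered by library 1 at -14.15. That library had no Ms4a6c count, so its value was set by the 0.5 count added before the log. Lying below in this way was common: at 11 months 87.5% of tested genes did, with a reference that was itself higher in 5XFAD. With Csf1r and Aif1 alone as the reference, the differences at 11 months were -0.39 for Ms4a6d and -0.77 for Ms4a6b.

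**Figure D4:**
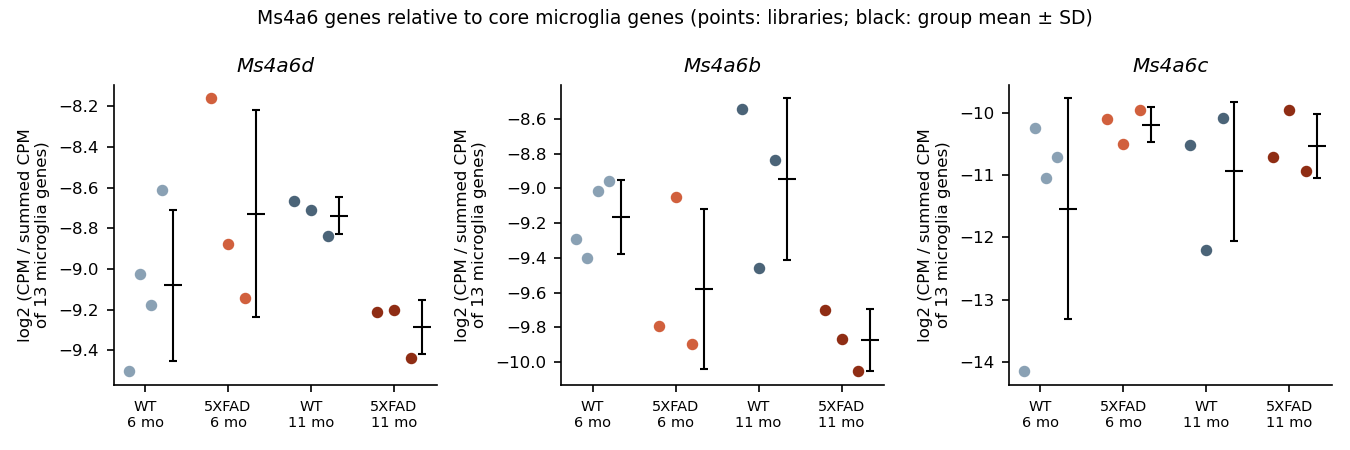
Log2 ratio of the CPM of Ms4a6d, Ms4a6b and Ms4a6c to the summed CPM of 13 core microglia genes (vertical axis, own scale per gene) in each library by group, with black marks for the group mean ± SD. At 11 months the 5XFAD points of Ms4a6d and Ms4a6b lie below the wild-type points, and those of Ms4a6c overlap.

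Single microglial genes differed in the size of their change. Csf1r, the receptor that microglia need to survive, rose by 0.80 ± 0.16 on the log2 scale at 6 months (adjusted p = 0.0242) and 1.28 ± 0.17 at 11 months (adjusted p = 0.000516), and Aif1, which encodes Iba1, by 1.01 ± 0.14 and 1.20 ± 0.15. Cx3cr1, the fractalkine receptor, rose by 0.92 ± 0.19 and 1.42 ± 0.21, while P2ry12, a purine receptor of resting microglia, had 0.65 ± 0.19 at 6 months (adjusted p = 0.173) and rose by 1.07 ± 0.20 at 11 months. Tmem119, another gene of resting microglia, was not called at either age (0.28 ± 0.18, adjusted p = 0.726, and 0.44 ± 0.19, adjusted p = 0.295). Trem2, the lipid-sensing receptor to which human MS4A variants have been linked, rose by 2.17 ± 0.22 and 3.06 ± 0.25, and its signalling adaptor Tyrobp by 2.38 ± 0.15 and 2.98 ± 0.17. Of 16 genes of the TREM2 and Fc receptor chain, 10 rose at 6 and 14 at 11 months, against 1.30% and 3.80% of tested genes, with medians of 1.17 and 1.65. Between 6 and 11 months in 5XFAD, 12 of the 16 rose, against 4.84% of tested genes, and Trem2 rose by 1.09 ± 0.23 (adjusted p = 0.0186), where the change of Ms4a6d was 0.31 ± 0.30. Whether those changes differ from each other was not tested.

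Tmem176a and Tmem176b, membrane proteins related to the MS4A family and encoded side by side on chromosome 6, were far more abundant than the 7 members and were called at both ages. At 6 months Tmem176a had 12.6 ± 1.64 CPM in wild type against 26.2 ± 6.04 CPM in 5XFAD, and at 11 months it had 18.96 ± 3.23 and 42.05 ± 3.04 CPM. It rose by 1.06 ± 0.16 (adjusted p = 0.00203) and 1.15 ± 0.17 (adjusted p = 0.000731) on the log2 scale. Tmem176b rose by 0.79 ± 0.13 (adjusted p = 0.00629) and 1.11 ± 0.14 (adjusted p = 0.000274). In 5XFAD both also rose with age, by 0.68 ± 0.16 (adjusted p = 0.0267) and 0.76 ± 0.14 (adjusted p = 0.0109). In wild type their age changes were 0.60 ± 0.16 (edgeR adjusted p = 0.0513) and 0.44 ± 0.13 (0.0747), just short of the threshold. The interactions of 0.09 ± 0.23 and 0.32 ± 0.20 were not called, so the age rise was not shown to be particular to 5XFAD. The 2 genes overlap on opposite strands (chr6:48833818-48841496 for Tmem176b and chr6:48840919-48847071 for Tmem176a), and the strand setting of the counting is not given in the sources used here, so that their reads may be shared in part.

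The other 12 Ms4a genes of the cluster were scarce. Of 16 related genes listed, 14 were matched and 3 passed the filter, Tmem176a, Tmem176b and Ms4a15. Ms4a15 had 40 and 49 counts in wild type and 5XFAD at 6 months and 6 and 33 at 11 months, 31 of these in a single 5XFAD library, and was not called (adjusted p = 0.875 and 0.371). Ms4a14, next to Ms4a7, had 14, 3, 7 and 23 counts in wild type and 5XFAD at 6 and then at 11 months. Ms4a1 had 0, 2, 1 and 3 counts and Ms4a2 had 3, 1, 0 and 0 in the same order. Ms4a10, Ms4a12 and Ms4a18 had no count in any library.

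Markers of other cells in which Ms4a genes are known were read in the same libraries. Of 9 border macrophage genes 6 were tested and none was called between genotypes at 6 or 11 months (medians -0.17 and -0.19), while 3 of the 6 rose with age in 5XFAD and 2 in wild type, against 4.84% and 2.42% of tested genes. Their summed level was 9.06 to 14.7 CPM in wild type against 8.63 to 11.2 CPM in 5XFAD at 6 months, and 17.97 to 27.3 and 17.3 to 19.6 CPM at 11 months. Mrc1, the mannose receptor, had a genotype difference of -1.07 ± 0.48 at 6 months (adjusted p = 0.518) and -0.18 ± 0.42 at 11 months (0.888). It rose with age in 5XFAD by 1.91 ± 0.49 (adjusted p = 0.0319). The Ms4a7 libraries in 5XFAD lay in that direction too, the closest of them tied in counts. In wild type the log2 change with age was 1.02 ± 0.41 for Mrc1 (edgeR adjusted p = 0.150). For Ms4a7 it was 0.08 ± 0.80 in the fit without the filter. Cd163, the haemoglobin scavenger receptor, was not called in either genotype comparison (0.51 ± 0.48 and -0.20 ± 0.51). Its change with age was -0.24 ± 0.51 in 5XFAD and 0.46 ± 0.48 in wild type, neither called. The part of border macrophages in the Ms4a7 counts was not tested.

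Of 13 T and NK cell genes 6 were tested and none was called between genotypes (medians -0.35 and -0.04). Their sum, which is mostly Cd4 and Trbc2, was 54.2 to 94.0 CPM in wild type against 41.3 to 75.6 CPM in 5XFAD at 6 months, and 15.4 to 47.3 and 17.0 to 35.1 CPM at 11 months. Trac, the constant part of the T-cell receptor alpha chain, had 69, 39, 29 and 55 counts in wild type and 5XFAD at 6 and then at 11 months and was not called. The CD3 chains of the receptor complex were under the filter: Cd3e had 2, 5, 3 and 25 counts in the same order, Cd3d had 0, 2, 0 and 10, and Cd3g had 8, 5, 2 and 26. These 3 were highest in 5XFAD at 11 months, as was Ms4a4b with 2, 12, 1 and 19 counts, and the part of T cells in the Ms4a4b counts was not tested. Of 6 monocyte genes 2 were tested, and Ccr2, their chemokine receptor, rose at 11 months by 2.53 ± 0.67 (adjusted p = 0.0428) and had 0.88 ± 0.72 at 6 months (adjusted p = 0.793). Ccr2 had 13 to 21 counts in 5XFAD libraries at 11 months and 0 to 6 in the other 10, so it passed the filter only through the group in which it was called higher. The monocyte list summed to 15.2 to 17.96 CPM in wild type against 18.1 to 21.02 CPM in 5XFAD at 6 months, and to 21.3 to 25.2 and 21.8 to 25.9 CPM at 11 months, most of it Vcan, and its part in the Ms4a6c and Ms4a4c counts was not tested. Of 6 B-cell genes 1 was tested and not called.

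Genes whose log2 CPM followed a tested member most closely over the 13 libraries were found, out of 14607 compared, by the root mean square difference after each gene was centred on its own mean. For Ms4a6d these were Bin2 and Pros1, at 0.28 each, and Olfml3 at 0.30, where the SD of Ms4a6d itself was 0.73. Bin2 had a genotype difference of 0.91 at 6 months (adjusted p = 0.0578) and rose by 0.99 at 11 months (adjusted p = 0.0226). Olfml3, a secreted protein of microglia, rose by 1.14 at 6 months and 1.21 at 11 months (adjusted p = 0.000649 and 0.000292), and Pros1, the vitamin K-dependent protein S, rose by 0.88 and 1.16 (adjusted p = 0.0130 and 0.000899). For Ms4a6b they were Pnpla7, the endosomal receptor Tlr3 and the lysosomal membrane protein Lamp2, at 0.24 each against its own SD of 0.48. Lamp2 rose by 0.49 and 0.78 (adjusted p = 0.0135 and 0.000208), while Pnpla7 had 0.27 and 0.48 (adjusted p = 0.639 and 0.111) and Tlr3 had 0.50 and 0.47 (adjusted p = 0.128 and 0.0985). For Ms4a6c the closest gene, Flnc, was still far off, at 0.83 against its own SD of 1.49, and Flnc rose by 1.24 and 2.17 (adjusted p = 0.0320 and 0.000208). The libraries share genotype and age, so that many genes follow such a pattern, and these distances are descriptions over 13 libraries.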

How the data were processed

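RNA from frontal cortex was measured in 13 libraries. Per the submitters' processing notes, the authors used STAR 2.7.1, RSEM and the build GRCm38. The deposited files hold RSEM expected counts per gene and TPM, which is scaled by depth and transcript length. For the RSEM version, annotation and strand setting, the sources used here give nothing. All 55536 identifiers matched GENCODE M21. Groups came from sample titles.

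Expected counts were rounded, and genes passing filterByExpr (minimum count 10, minimum total 15) were fitted with edgeR 4.0.16 (robust quasi-likelihood, TMM, 4 group means, all 13 libraries, Benjamini-Hochberg over 17483 genes, adjusted p under 0.05). CPM are counts scaled by TMM library sizes. Values after ± beside log2 changes from edgeR are approximate standard errors, taken from the log2 change and its test statistic. Script outputs were tested on simulated data. Alternatives were RLE scaling, no low-count filter, DESeq2 1.42.0, limma 3.58.1 on log2(TPM + 1) and log2(TPM + 0.1), sex as a term (read from Xist and Y-linked counts), one age alone, and leaving out each library. Ratios of group totals used exact conditional binomial intervals (95%), and a floor of 3 counts was used for zeros.

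All 7 members are named, with related genes that passed the filter, a fixed set of cell markers, and up to 3 genes most like each tested member; some items are not reported here. Members and lists were chosen with earlier results of these data known.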

Additional observations from a re-analysis of the deposited data

How the results depend on the processing

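Of the 3 tested members, 1 was called at 6 months, and none with sex as a term (0) or in a fit of that age alone (0). Leaving out a library gave 0 to 1 called at 6 months and 0 to 1 at 11 months, the 1 at 11 months being Ms4a6c without wild-type library 1 at 6 months. For the genotype difference averaged over ages, 2 genes were called, 4 without the low-count filter (Ms4a4b, Ms4a4c, Ms4a6c and Ms4a6d) and 1 to 2 when a library was left out. For the age difference averaged over genotypes, 1 gene was called, 0 without the filter and 0 to 1 when a library was left out. In the age contrast the gene called was Ms4a6b with RLE scaling, DESeq2 and sex as a term, but Ms4a6d with log2(TPM + 1) and log2(TPM + 0.1). The cause of these shifts was not tested. No tested member changed direction in a genotype or age comparison under any alternative. On the TPM scale the median of all genes moved by -0.11 in the genotype comparison at 6 months. For the age comparison in wild type DESeq2 gave no adjusted p for the members and is not counted. No paired analysis was possible because replicate numbers follow accession order and pair no samples. Depth limits the 4 genes under the filter: 3 counts correspond to 0.116 to 0.127 CPM in a library.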
